A study of Mus musculus with 8 samples.

Results

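Transcripts annotated as targets of nonsense-mediated decay (NMD) were followed through mouse oocyte maturation and in pluripotent cells in culture. The members were all rows whose annotated biotype was nonsense_mediated_decay: 5574 of the 117667 transcripts quantified (4.74%), from 3573 of 48440 genes. Of these genes, 3522 also had a transcript of another biotype and 51 had NMD transcripts only, while 2343 had 1 NMD transcript and 1230 had 2 or more, up to 13 in Tmem234. Total RNA was sequenced from MII oocytes (arrested at the second meiotic metaphase, ready for fertilization), GV oocytes (fully grown, with an intact nucleus, the germinal vesicle), EpiC (in vitro epiblast cells, made from embryonic stem cells) and ESC (embryonic stem cells), with 2 libraries in each group. Females had received 5 units of PMSG, a gonadotropin that drives follicle growth, 48 h before an injection. Medium with 2 µM milrinone, which keeps meiosis arrested, is listed for GV and MII oocytes alike. The ESC were kept in 15% fetal bovine serum with LIF and 2i (PD0325901 and CHIR99021), the agents that hold them in the naive state, and EpiC were ESC plated for 24 h, then deprived of LIF and 2i and collected about 56 h after that. The genotype, mouse strain and ages are not given in the sources used here, and the labels do not say whether the 2 libraries of a group came from separate animals or cultures, so p-values measure the spread between these libraries only.

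NMD is a translation-dependent quality control of mRNA: a ribosome that stops well upstream of an exon junction leaves the junction's protein complex in place, UPF1 is recruited and phosphorylated by SMG1, and SMG5 and SMG6 then help lead the mRNA to cleavage, decapping and decay. Many genes of RNA-binding proteins make such transcripts by including a poison exon, an exon with an early stop codon. Fully grown oocytes are transcriptionally silent and live on stored maternal mRNA, part of which is degraded during maturation.

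The stop positions of the members, read from an annotation that also gives the biotype, mostly follow that rule. They describe how members are defined and are no result of these data. For 5368 of the 5574 transcripts GENCODE M21 (GRCm38) listed a transcript of the same identifier, biotype and length, and 5367 of them had an annotated stop codon, which was TGA in 57.8%, TAA in 22.7% and TAG in 19.5%. The stop lay 50 bases or more before the last exon junction in 5338 of them (99.5%), at a median of 328 bases (quartiles 157 and 721), with a median of 3 junctions after it. The median reading frame had 100 codons, which was 22.8% of the frame of the gene's coding transcript. Of 5284 stops that could be placed against the coding transcript, 3094 (58.6%) fell inside sequence that is coding there and 1233 (23.3%) in an exon the coding transcript lacks. Another 590 (11.2%) fell in an exon extended past its boundary in the coding transcript, 254 (4.81%) were the coding transcript's own stop, 68 (1.29%) lay in an intron kept between exons, and 45 (0.852%) lay in its untranslated exon sequence. The median member was 1199 bases long, against 1801 for protein-coding and 860 for retained-intron transcripts.

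The stop codons of the transcripts on which the results below turn are shown with 12 bases before and 15 after, read from the GENCODE M21 transcript sequences, 5′ to 3′ on the transcript strand, with the stop codon in capitals. The coordinates are the span of the whole transcript on GRCm38. The first set shows transcripts whose level, or share of the gene, was higher in oocytes than in cultured cells: Oosp1-002 (chr19:11667673-11691034, minus strand), Furin-007 (chr7:80396000-80402577, minus), Ikbkb-002 (chr8:22659213-22706540, minus), Naa60-002 (chr16:3884769-3904769, plus) and Cnot6l-002 (chr5:96075589-96161755, minus).
Oosp1-002: tcctcatttctgTGAagcagaaagtagagg
Furin-007: ctccatcctggaTGAcggcattgagaagaa
Ikbkb-002: gaaggaagactgTAAccggctgcagcaggg
Naa60-002: agccgtaccatgTAAtgccattggggcagc
Cnot6l-002: gagtgcggagctTAAgtacatcactctggt
In Oosp1-002, Furin-007, Ikbkb-002 and Cnot6l-002 the stop falls in sequence that is coding in the gene's coding transcript. Naa60-002 keeps the coding transcript's stop and frame of 242 codons, with a junction 186 bases after that stop.

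The second set shows transcripts whose level, or share of the gene, was lower in oocytes than in cultured cells or lower in MII than in GV: Mettl13-005 (chr1:162533679-162548522, minus), Smc1a-002 (chrX:152016428-152036212, plus), Ddx5-007 (chr11:106781976-106788488, minus), Pitpna-002 (chr11:75588159-75626433, plus) and the poison-exon transcripts Srsf6-002 (chr2:162931562-162935026, plus) and Tra2a-002 (chr6:49243924-49264011, minus).
Mettl13-005: accacagtgcctTGAgtggtgactatgtta
Smc1a-002: gacagctctgttTGAagaaattagtcgctc
Ddx5-007: cgcaccgcaatgTGAaatttgtcatcaatt
Pitpna-002: agaaccggtgcaTAAactggagcctgaggc
Srsf6-002: gccttttgccatTAGacgcagggtgatggt
Tra2a-002: agattggtcagaTAGaagcacttgaatatt
The stops of Srsf6-002 and Tra2a-002 lie in an exon that the coding transcript lacks, and the other 4 lie in sequence that is coding there.

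Estimated counts per library ranged between 47463546 and 196788239, and replicate 2 was the deeper library in every group. The 8 oocyte markers summed to between 25158 and 34590 TPM (length-scaled transcript abundance, with the same total in every library) in oocytes and to between 1.68 and 11.7 TPM in cultured cells. Markers of granulosa and cumulus cells, the somatic cells around the oocyte, summed to 56.7 and 63.8 TPM in MII and to 34.6 and 149 TPM in GV, against 1.90 to 22.7 TPM in cultured cells. Of these 10 markers 4 and 4 were above 1 TPM in MII and 4 and 6 in GV. Fibroblast markers summed to 142 and 63.7 TPM in EpiC, against 0.277 to 3.73 TPM elsewhere, and 3 of the 7 were above 1 TPM in each EpiC library. Whether these sums come from such cells, and the part of such cells in the results, was not tested. In such bulk samples fewer cells of a type and less RNA per cell cannot be told apart.

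NMD transcripts held a small part of the RNA everywhere, but their median share of a gene was lower in oocytes. They made up 2.60 and 2.81% of all TPM in MII, 2.28 and 2.32% in GV, 2.19 and 1.86% in EpiC and 2.15 and 2.08% in ESC. By TPM every oocyte library was above every cultured library (2.50 ± 0.249% against 2.07 ± 0.145%, SD, n = 4 each, difference 0.43 points, exact permutation test, two-sided p = 0.0286, adjusted 0.0429, where 0.0286 is the smallest p that 70 arrangements allow). Here and below this test treats the 4 libraries of a side as exchangeable, although each side holds 2 groups. The mean was 2.70% in MII and 2.30% in GV, so the difference was larger for MII than for GV. As a part of the estimated counts, with no division by length, they made up 2.13 and 2.15% in MII, 1.89 and 1.89% in GV, 1.98 and 1.92% in EpiC and 1.97 and 2.04% in ESC. On counts MII was highest and GV lowest, and the difference between oocytes and cultured cells was 0.0373 points (exact permutation test, p = 0.629). With mitochondrial and ribosomal RNA and Gm42418 left out of the total the percentages were 2.95 and 3.29 in MII, 2.32 and 2.39 in GV, 2.29 and 2.41 in EpiC and 2.24 and 2.51 in ESC. On that base the groups overlap. The difference also did not pass with a cultured library left out (exact permutation test, p = 0.0571 without ESC replicate 1, ESC replicate 2 or EpiC replicate 1 and 0.0857 without EpiC replicate 2), and passed with an oocyte library left out.

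The median share per host gene was lower in oocytes. Over 1821 genes with an NMD and another transcript and at least 1 TPM in all libraries, the median NMD share of the gene's TPM was 2.05 and 2.51% in MII, 3.19 and 3.52% in GV, 4.78 and 8.69% in EpiC and 4.74 and 7.66% in ESC. All oocyte libraries lay below all cultured libraries, at 2.82 ± 0.661% against 6.47 ± 2.02% (SD, n = 4 each, difference -3.65 points, exact permutation test, two-sided p = 0.0286, adjusted 0.0429). It passed with any 1 cultured library left out, and not with any 1 oocyte library left out (exact permutation test, p = 0.0857 each), although no libraries overlap. On estimated counts the difference was -2.04 points (exact permutation test, p = 0.0286). Without replicate 2 of both EpiC and ESC it was -1.94 points (exact permutation test, p = 0.0667, the smallest that 4 against 2 libraries allow). Summed over host genes instead, NMD transcripts took 12.1 and 13.4% of their TPM in MII, 11.9 and 12.6% in GV, 11.8 and 14.9% in EpiC and 11.8 and 14.0% in ESC (12.5 ± 0.664% against 13.1 ± 1.60%, exact permutation test, p = 0.543). Summed in this way oocyte and cultured libraries overlap. Over the 1821 genes the mean share per gene, unlike the median, overlapped too. It was 12.3 and 13.2% in MII, 13.0 and 13.7% in GV, 11.7 and 14.7% in EpiC and 11.7 and 13.8% in ESC.

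Other non-coding transcript kinds moved with it. In the 1458 of these genes that list a retained intron, a transcript that keeps an intron and counts as unspliced, the median retained-intron share was 0.339 and 0.448% in MII, 0.884 and 1.16% in GV, 6.64 and 13.8% in EpiC and 7.38 and 13.3% in ESC. In the 972 of these genes with a transcript of the biotype processed_transcript, the median share of that kind was also lower in oocytes. It was 0.906 and 1.10% in MII, 1.78 and 2.15% in GV, 3.08 and 6.42% in EpiC and 3.28 and 6.04% in ESC. Within the cultured groups replicate 2 was higher than replicate 1 in the NMD, the retained-intron and the processed-transcript share alike. In the 363 genes that list no retained intron the median NMD share was 2.05 and 1.60% in MII, 2.30 and 3.59% in GV, 5.03 and 10.4% in EpiC and 5.09 and 9.54% in ESC, with the same separation of oocytes and cultured cells. The part of library depth and of unspliced RNA in these shares was not tested.

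**Figure D1:**
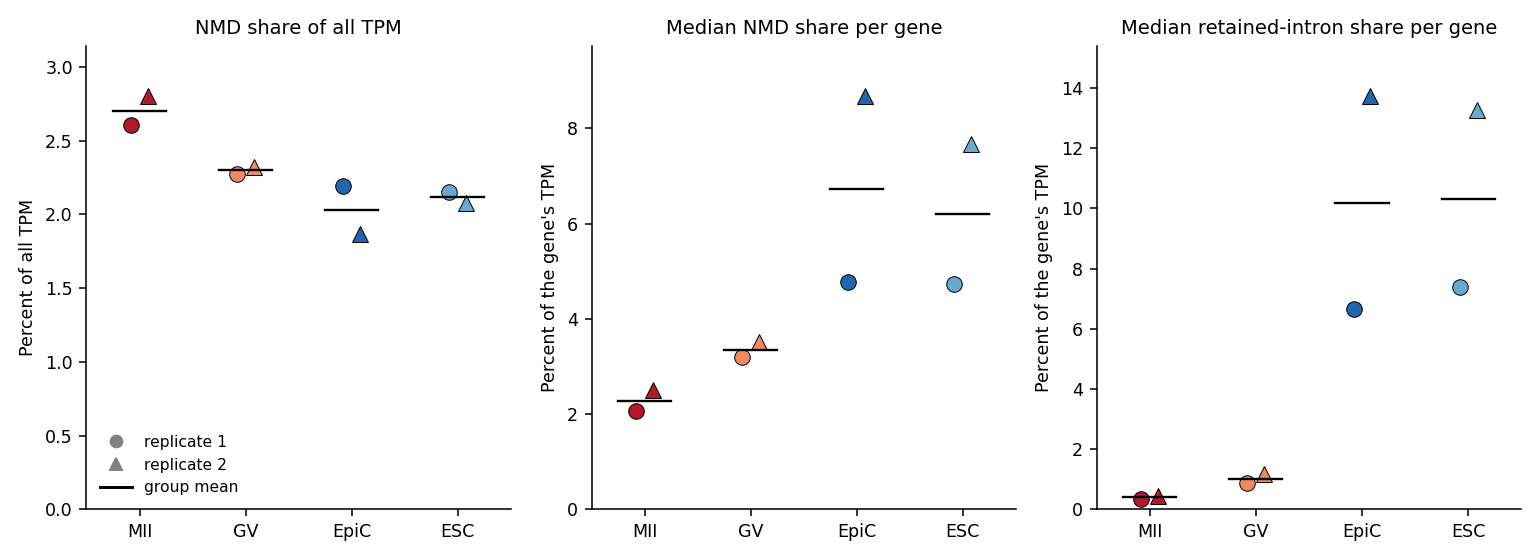
NMD transcripts as a percent of all TPM (left), median NMD share of a gene's TPM over 1821 genes (middle) and median retained-intron share over 1458 genes (right), in percent, for MII, GV, EpiC and ESC. Circles are replicate 1, triangles replicate 2 and lines group means: oocytes are above cultured cells on the left and below them in the middle and on the right, where replicate 2 of EpiC and ESC stands above replicate 1.

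Genes with almost no NMD RNA were more frequent in oocytes. The NMD share was under 1% in 812 and 757 of the 1821 genes in MII, in 702 and 669 in GV, in 506 and 263 in EpiC and in 538 and 288 in ESC. At the other end, a share of 50% or more was found in 120 and 130 genes in MII, 121 and 137 in GV, 78 and 98 in EpiC and 82 and 89 in ESC. Every oocyte library held more genes at each extreme than any cultured library. In 38 genes the share was 50% or more in all 8 libraries and in 122 it was under 1% in all 8. Bcat2, Gin1 and Tmem72 were the 3 genes at 50% or more in all oocyte libraries and under 10% in all cultured ones, and 0 genes showed the reverse.

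**Figure D2:**
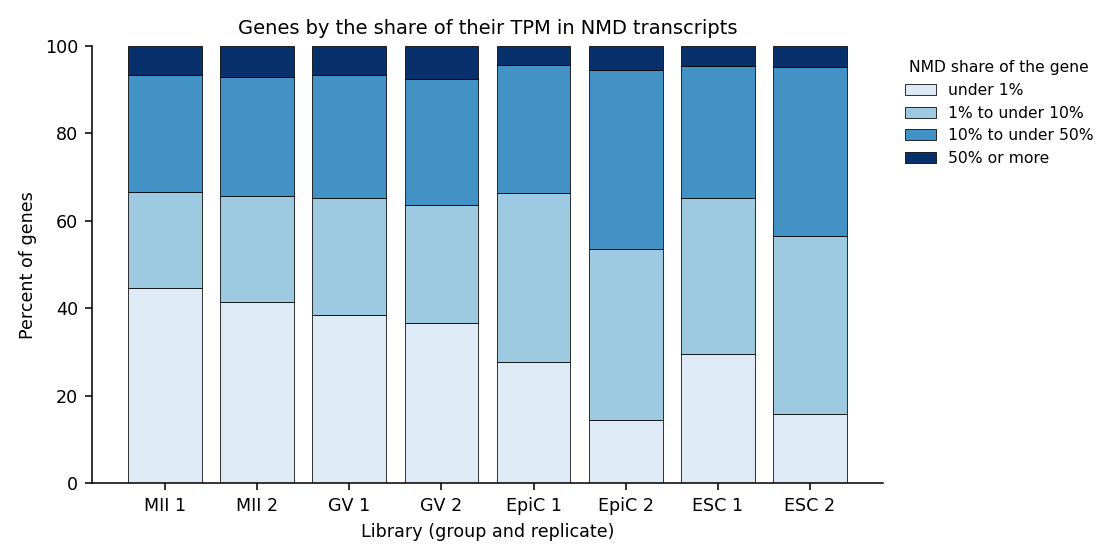
Stacked bars give, for each library, the percent of 1821 genes whose NMD transcripts made up under 1%, 1% to under 10%, 10% to under 50% and 50% or more of the gene's TPM. The palest part, under 1%, is tallest in MII (812 and 757 genes) and shortest in replicate 2 of EpiC and ESC (263 and 288 genes).

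Fewer different NMD transcripts reached 1 TPM in oocytes, and in MII a smaller number of them made up most of the NMD RNA. At least 1 TPM was reached by 937 and 971 of the 5574 in MII, 1295 and 1289 in GV, 1640 and 1963 in EpiC and 1657 and 2046 in ESC. That was 16.8 and 17.4% of them in MII, 23.2 and 23.1% in GV, 29.4 and 35.2% in EpiC and 29.7 and 36.7% in ESC. Protein-coding transcripts at 1 TPM or more were also fewer in every oocyte library, at 24.7 and 26.0% in MII and 34.6 and 34.3% in GV, against 38.7 and 38.5% in EpiC and 37.8 and 39.9% in ESC. Over all libraries 2886 reached 1 TPM somewhere, 406 did so everywhere, 2688 stayed below it in all 8 and 365 were at 0 in all 8. The most abundant transcripts that together gave 50% of the NMD TPM numbered 35 and 35 in MII, 73 and 77 in GV, 63 and 124 in EpiC and 70 and 120 in ESC. MII was lowest in this number, and GV lay inside the range of the cultured libraries.

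The most abundant member in every oocyte library was Oosp1-002, from the gene of an oocyte-secreted protein. It had 3178 and 3263 TPM in MII and 1275 and 1228 TPM in GV and was at 0 in EpiC and ESC, where the gene itself was at 0. It alone gave 12.2 and 11.6% of all NMD TPM in MII and 5.60 and 5.30% in GV. Within its gene its share was 35.9 and 41.7% in MII and 34 and 41.7% in GV, so the libraries overlap in share while the level was higher in MII (log2 change 2.07 ± 0.35 SE, adjusted p = 0.0184). Adjusted p here and below is from edgeR's quasi-likelihood tests over all transcripts, and the rise no longer passed with any of these omitted: GV replicate 1 (0.079), GV replicate 2 (0.0742), MII replicate 1 (0.0558), MII replicate 2 (0.0716).

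Ermp1-002, from an endoplasmic reticulum metallopeptidase gene, had 958 and 687 TPM in MII, 392 and 166 in GV, 18.1 and 6.51 in EpiC and 15.7 and 8.24 in ESC. Its share of the gene was large everywhere, between 56.5 and 66.3% in oocytes and between 52.3 and 60.7% in cultured cells, and did not pass the test (adjusted p = 0.479). Its level was higher in oocytes by a log2 change of 6.66 ± 0.48 (SE, adjusted p = 6.83e-05), as the gene's was. Rgs2-004, whose stop lies in a kept intron of the gene for a regulator of G protein signalling, had 832 and 745 TPM in MII, 358 and 406 in GV, 2 and 1.51 in EpiC and 0.0214 and 0 in ESC. Its share was 61.6 and 64.4% in MII and 53.1 and 61.3% in GV, above every cultured library, the highest of which was 48.8%. The gene is close to silent in ESC, so its share there rests on few reads.

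Rnf114-003, from the gene of an E3 ubiquitin ligase, had 547 and 504 TPM in MII, 389.6 and 362 in GV, 31.4 and 33 in EpiC and 35.8 and 38.1 in ESC. It was the larger part of its gene in all libraries, between 67.5 and 75.3% in oocytes and between 57 and 63.3% in cultured cells. Tcl1b2-002, which keeps the stop of the coding transcript of a Tcl1-family gene, had 751 and 652 TPM in MII, 139 and 151 in GV, 0 and 0 in EpiC and 1.57 and 2.91 in ESC. In oocytes its share varied little, between 32.6 and 35.2%, while its gene was higher in MII than in GV.

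Syce2-002, from a gene of the synaptonemal complex, which pairs chromosomes in meiosis, was present in all cells, with 114 and 84 TPM in MII, 379 and 327 in GV, 77.7 and 38.4 in EpiC and 58.6 and 32.7 in ESC. Its share lay between 37.2 and 45.1% in oocytes and between 45.5 and 51.2% in cultured cells. Serf2-006 had 347 and 379 TPM in MII, 260.4 and 344 in GV, 198 and 103 in EpiC and 181 and 128 in ESC, with all oocyte libraries above all cultured ones.

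In cultured cells the most abundant members came from genes of the translation machinery. Eef1b2-004, from the gene of translation elongation factor 1 beta, had 70.1 and 118 TPM in MII, 129 and 219 in GV, 1239 and 608 in EpiC and 1121 and 890.4 in ESC. Its share was nearly constant, between 48.2 and 53.1% in oocytes and between 43.4 and 48.7% in cultured cells. Rps19-004, from the gene of a protein of the small ribosomal subunit, had 1.49 and 8.07 TPM in MII, 81.3 and 173 in GV, 980.3 and 1096 in EpiC and 900.0 and 971 in ESC. It took between 28.3 and 34.7% of its gene in oocytes and between 29.7 and 35.6% in cultured cells, and its usage change of 0.12 ± 0.56 (log2, SE) did not pass the test (adjusted p = 0.968). Its level was lower in oocytes, with a log2 change of -3.91 ± 0.63 (SE, adjusted p = 0.00197).

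Some members were the main product of their gene wherever it was expressed. Among genes of at least 10 TPM in all libraries, the highest mean NMD shares belonged to Mrps14-003, Commd2-002, Sec22b-002, Pgs1-004, Uxs1-002, Atp5f1-002, Mrpl35-002 and Cbx1-003. Mrps14-003, from a mitochondrial ribosomal protein gene, made up 91.4 and 88.6% in MII, 87.5 and 86.2% in GV, 87 and 82.1% in EpiC and 84.5 and 80.3% in ESC. Commd2-002 made up 89.2 and 90.5% in MII, 90.7 and 90.2% in GV, 82 and 80.5% in EpiC and 83.6 and 80.4% in ESC, with every oocyte library above every cultured one. Uxs1-002, from the gene of an enzyme that makes UDP-xylose, made up 78.8 and 80.4% in MII, 78.8 and 75.1% in GV, 68.7 and 60.2% in EpiC and 70.7 and 68% in ESC. The early stops of Commd2-002 and Uxs1-002, shown because all other transcripts together were the minor part of the gene in every library, lie in sequence that is coding in the coding transcript.
Commd2-002: gccgccaatttcTGAactggatttccaaga
Uxs1-002: agaacttcgagcTGAttaaccatgatgtgg

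Oocytes were then compared with cultured pluripotent cells, as the mean of MII and GV against the mean of EpiC and ESC, first by level (the transcript's counts) and then by usage (the change of the transcript beyond that of its gene, that is, of its share of the gene's counts). Of 5574 members 4004 passed the filter on low counts. Level was higher in oocytes for 795 (all transcripts: 24.1%) and lower for 1286 (all transcripts: 36.9%) at an adjusted p under 0.05. An alternative chosen after seeing the data left out replicate 2 of both EpiC and ESC. The median level change of members was then -0.40 (log2), against -0.88 over all transcripts. On limma's log2(TPM + 1) scale 663 members were higher and 1763 lower, against 13666 and 33865 of all 69656 transcripts. The median level change over all transcripts was -1.46 (log2) with TMM scaling and -1.93 with RLE scaling, so a change near these values is no departure from the rest. The TMM factors were 0.444 and 0.387 in MII, 0.802 and 0.819 in GV, 1.84 and 1.64 in EpiC and 1.76 and 1.67 in ESC. Log2 changes of level, here and above, are on counts scaled in this way and need not match the ratio of the TPM beside them.

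Usage, which does not turn on the scaling between libraries in this way, was tested in 3943 members. It was higher in oocytes for 223 (all transcripts: 5.53%) and lower for 941 (all transcripts: 24.3%). The 29.5% of NMD transcripts called in either direction lie close to the background of 29.8% over all transcripts, so the count by itself is no result about NMD transcripts. Their median usage change was -1.06 (log2) against -0.69 over all 56755 transcripts tested. Protein-coding transcripts had a median of -0.08 with 1919 higher and 4375 lower of 30549, and retained introns a median of -3.71 with 265 higher and 6296 lower of 13058. NMD transcripts stood between these 2 kinds. Transcripts of the biotype processed_transcript, also non-coding, had a median of -1.26 with 614 higher and 2031 lower of 7659, close to NMD transcripts. Without replicate 2 of both EpiC and ESC the median was -0.20 for NMD transcripts and -0.26 over all transcripts. The order of these 2 medians was the reverse of that in the main test. The lower count was 606 without MII replicate 2 and 595 without ESC replicate 2, and the higher count was 147 without ESC replicate 1.

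The median usage change was listed by kind of stop, where over all transcripts 24.3% were lower and 5.53% higher. Of 57 tested members with the stop in a kept intron 28 were lower in usage and 2 higher, with a median of -3.78. In extended exons 125 of 436 were lower and 17 higher (median -1.70), and in exons that the coding transcript lacks 249 of 939 were lower and 43 higher (median -1.39). Where the stop fell inside coding sequence 470 of 2156 were lower and 139 higher (median -0.78), and where the coding transcript's own stop was kept 29 of 171 were lower and 14 higher (median -0.28). Where the stop lay in untranslated exon sequence 6 of 30 were lower and 3 higher, and the median was above 0, at 0.13. The differences between these kinds were not tested.

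**Figure D3:**
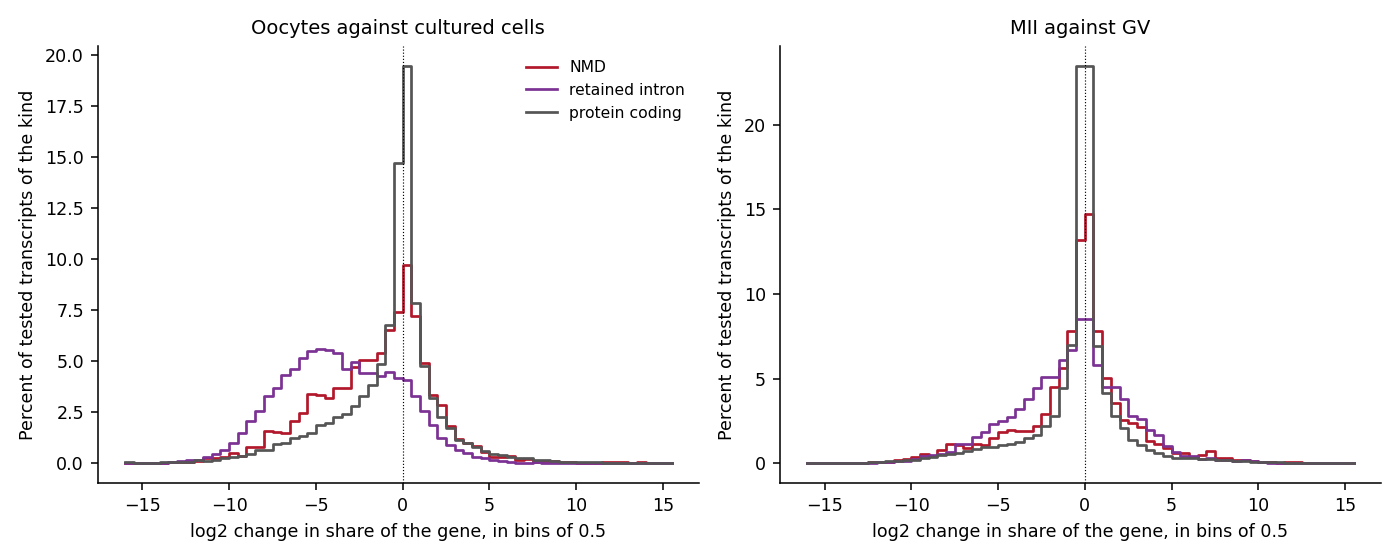
Distribution of the log2 change in share of the gene (bins of 0.5), as a percent of the tested transcripts of each kind, for oocytes against cultured cells (left) and MII against GV (right). NMD transcripts (median -1.06 on the left) lie between retained introns (-3.71) and protein-coding transcripts (-0.08) on the left, and on the right the medians are -0.09 for NMD transcripts, -0.56 for retained introns and -0.01 for protein-coding transcripts.

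The members most shifted towards oocytes were near 0 in cultured cells, where near 0 stands for under 1 estimated count. Naa60-002, from the gene of an N-terminal acetyltransferase of the Golgi, made up 72.3 and 72.2% of its gene in MII and 69.6 and 62.4% in GV, and near 0 in EpiC and ESC. The gene itself was not low in cultured cells, with 12.5 and 8.86 TPM in MII, 30.7 and 28 in GV, 29.6 and 25.5 in EpiC and 25.7 and 26.6 in ESC. The share was at least 705-fold higher in oocytes when the cultured libraries are set at the floor of 3 estimated counts each (adjusted p = 1.25e-10). Shares without overlap between the groups were a condition for naming members by usage, here and in the next paragraphs.

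Ikbkb-002, from the gene of IκB kinase beta, the kinase that releases NF-κB, made up 34.7 and 37% in MII and 44.4 and 43.2% in GV, and near 0 in cultured cells. The share was at least 497-fold higher in oocytes (adjusted p = 2.33e-11), while its gene had only 1.55 and 2.49 TPM in MII, against 18.1 to 28.8 TPM in cultured cells. Furin-007, from the gene of the proprotein convertase furin, made up 38.6 and 43.1% in MII, 43.6 and 34% in GV, 1.97 and 0% in EpiC and 2.33 and 0.8% in ESC. All oocyte libraries were high and all cultured libraries low, a usage change of 6.04 ± 0.60 (log2, SE, adjusted p = 3.34e-08), and at 208 and 348 TPM in MII it was an abundant RNA.

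Cnot6l-002, from the gene of a deadenylase of the CCR4-NOT complex, which shortens poly(A) tails and acts in maternal mRNA decay, made up 19.9 and 8.82% in MII, 15.3 and 8.15% in GV, near 0 and 0% in EpiC and 2.22 and 3.22% in ESC. The usage change was 7 ± 0.83 (log2, SE, adjusted p = 1.72e-07). Tpra1-014 made up 18.8 and 16.6% in MII, 17.3 and 10.2% in GV and at most 1.83% in cultured cells (6.18 ± 1.08, log2, SE, adjusted p = 1.29e-05).

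The shares of Tmem72-002, Plekhh3-002 and Slc6a20b-003 were also high in oocytes, but their genes were low in part of the libraries. Tmem72-002 made up 63.9 and 67.4% in MII and 69.3 and 79.2% in GV and was at 0 in EpiC and ESC, at least 32.3-fold higher (adjusted p = 3.90e-05). Plekhh3-002 made up 83 and 63.7% in MII and 96.4 and 94.7% in GV and was at 0 in cultured cells, at least 28.7-fold higher (adjusted p = 0.000259), although its gene had only 0.113 and 0.559 TPM in MII. Slc6a20b-003, from an amino acid transporter gene, made up 58.9 and 56.7% in MII and 66 and 69.3% in GV. With its gene at 0.0576 TPM at most in cultured cells, where the transcript was at 0, the bound on the difference in share is only 1.6-fold.

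The members most shifted towards cultured cells were close to absent from oocytes. Mettl13-005, from the gene of a methyltransferase of translation elongation factor 1A, made up near 0 of its gene in oocytes, against 61 and 55.9% in EpiC and 65.3 and 63.6% in ESC. Its gene had between 0.729 and 1.13 TPM in oocytes, and the share was at least 28.5-fold lower there (adjusted p = 5.79e-07). Crebzf-004, from the gene of a leucine zipper transcription factor, made up near 0 in oocytes, against 24.6 and 20.8% in EpiC and 13.1 and 24.8% in ESC, at least 18.3-fold lower (adjusted p = 2.80e-05). In neither case did any oocyte library approach the cultured ones.

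Smc1a-002, from the gene of a cohesin subunit, made up near 0 and 0% in MII and 0.17 and 0.104% in GV, against 12.4 and 8.13% in EpiC and 14.2 and 8.55% in ESC (adjusted p = 2.86e-05). Its gene was present throughout, at 5.22 and 4.94 TPM in MII and 28.2 and 21.3 TPM in GV. Wdr62-002, from the gene of a spindle pole protein, was graded, with near 0 and near 0 in MII, 3.93 and 3.1% in GV, 16.8 and 14.5% in EpiC and 22.7 and 18.8% in ESC. MII libraries were lowest, GV libraries next and cultured libraries highest with no overlap (adjusted p = 1.02e-08 for oocytes against cultured cells and 0.000318 for MII against GV).

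Sugp2-002, from the gene of a G-patch RNA-binding protein, was at 0.675% or less in oocytes, against 13.6% or more in cultured cells (adjusted p = 1.01e-05). Alkbh1-009, from the gene of an AlkB-family demethylase, was at 1.13% or less, against 8.7% or more (adjusted p = 0.00042). Rabggtb-009, from the gene of the beta subunit of the Rab prenyltransferase, was at 0.481% or less, against 8.01% or more (adjusted p = 0.000443). Oocytes and cultured cells did not overlap in any of these 3, which the rule for naming required, so this is no result about them. Over all transcripts shares lay wholly lower in oocytes in 24.1% and wholly higher in 9.62%. Wsb1-007, from the gene of a SOCS-box protein of ubiquitin ligases, was at 0.313% or less in oocytes, against 5.99% or more in cultured cells (adjusted p = 6.32e-05). These 16 members, 8 in each direction, kept their calls under every alternative run on them.

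**Figure D4:**
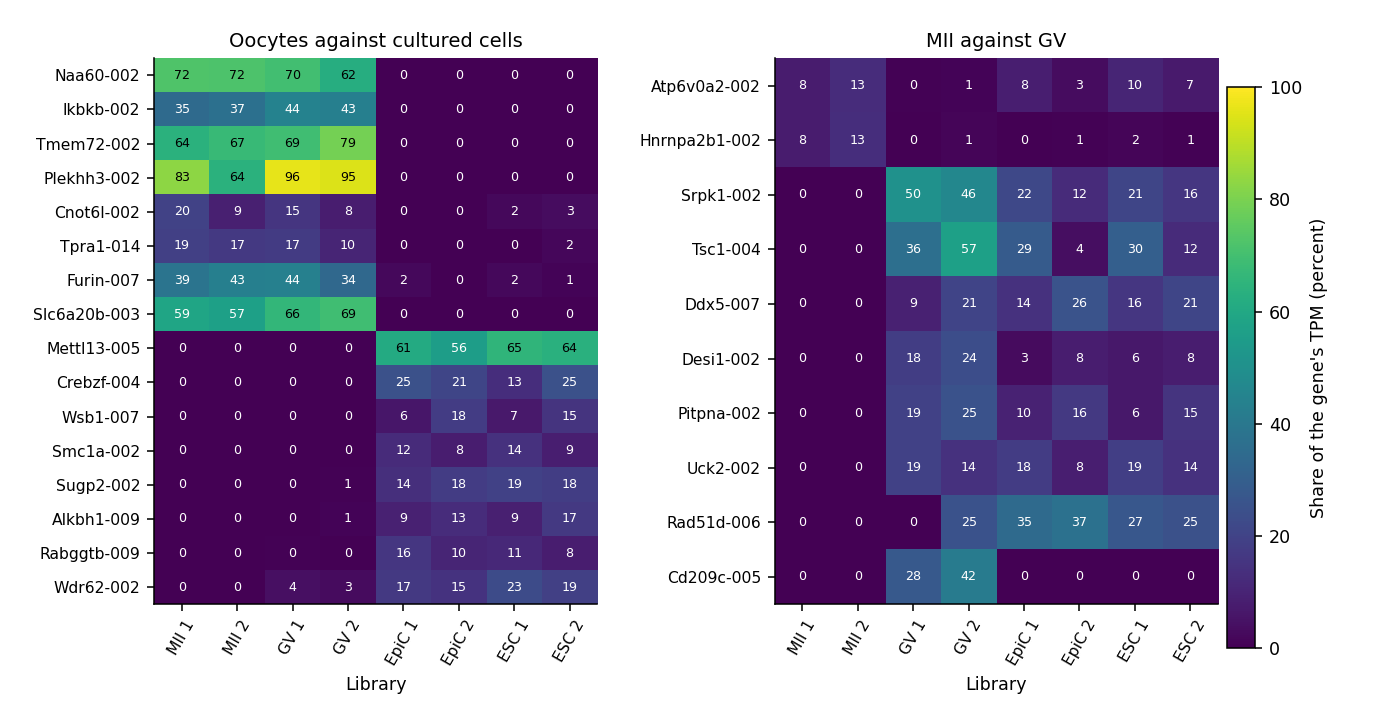
Share of the gene's TPM, in percent, of the NMD transcripts with the largest usage changes, a row each, in the 8 libraries, for oocytes against cultured cells (left) and MII against GV (right). Colours and numbers are the share, rounded: on the left the upper 8 are high in MII and GV and the lower 8 in EpiC and ESC, and on the right the lower 8 round to 0 in both MII libraries.

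By level, the members that stood out in oocytes included members of oocyte genes. Naa60-002, described above, was also among them (log2 change 14.7, adjusted p = 6.17e-05), though its gene was not low in cultured cells. Fbxw22-002, from an F-box protein gene, had 279 and 246 TPM in MII and 194 and 131 in GV and was at 0, like its gene, in EpiC and ESC, at least 3909-fold higher in oocytes by TPM (adjusted p = 3.40e-05). Miox-005, from the gene of myo-inositol oxygenase, had 22.9 and 26 TPM in MII and 278 and 253 in GV and was at 0 in cultured cells, at least 1278-fold higher (adjusted p = 4.64e-05). H1foo-003, from the gene of the oocyte linker histone, had 66.1 and 95.9 TPM in MII and 44.9 and 51.9 in GV, which was no more than 1.07% of its gene. Abundant members of oocyte genes thus had large and very small shares.

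Among the lower levels in oocytes, Tdgf1-004, from the gene of Cripto, a coreceptor of Nodal, was at 0 in all oocyte libraries, against 41.1 and 27.1 TPM in EpiC and 20 and 14.2 in ESC, at least 658-fold lower (adjusted p = 0.000154). Btbd19-004 was at 0 in oocytes, against 1.91 and 8.6 TPM in EpiC and 12.7 and 44.4 in ESC (adjusted p = 0.00237). Bend4-004 reached 0.0959 TPM at most in oocytes, against 20.8 and 9.36 TPM in EpiC and 13.1 and 9.55 in ESC (adjusted p = 0.000227). The host genes of all 3 were below 1 TPM in every oocyte library.

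Transcripts of genes that control splicing were then read by list. In the SR protein list (splicing activators, their kinases and partners) 18 of 22 genes had 35 NMD transcripts, of which 32 were tested. In oocytes against cultured cells 1 rose in usage (all transcripts: 5.53%) and 11 fell (all transcripts: 24.3%), with a median of -2.02 against -0.69 over all transcripts. These counts describe the list and are not a test of it.

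Srsf6-002 ends in the poison exon of an SR protein gene and had 2.56 and 6.45 TPM in MII, 4.2 and 9.19 in GV, 129 and 117 in EpiC and 150.1 and 144 in ESC. Its share was 21.3 and 44% in MII, 41.7 and 64% in GV, 47.3 and 59.2% in EpiC and 56.9 and 63.7% in ESC, so the level followed the gene and the share overlapped (usage adjusted p = 0.512). Tra2a-002, from the gene of a splicing activator of the SR-like family, made up 11.9 and 9.75% in MII, 7.3 and 8.6% in GV, 18.2 and 43.1% in EpiC and 22.1 and 36.3% in ESC. Tra2b-003, from its paralog, made up 4.05 and 6.01% in MII, 7.2 and 11.2% in GV, 10.5 and 31.8% in EpiC and 15 and 20.1% in ESC. Usage was lower in oocytes for both, with log2 changes of -1.45 ± 0.50 (adjusted p = 0.0457) and -1.45 ± 0.44 (adjusted p = 0.0455, log2, SE), only just inside the threshold. The Tra2a call was lost without GV replicate 1 (0.114), GV replicate 2 (0.0759), MII replicate 1 (0.0598), MII replicate 2 (0.0931), ESC replicate 1 (0.0558), ESC replicate 2 (0.166), EpiC replicate 2 (0.187) and the Tra2b call without GV replicate 1 (0.142), GV replicate 2 (0.0608), MII replicate 1 (0.107), MII replicate 2 (0.0563), ESC replicate 1 (0.0595), ESC replicate 2 (0.134), EpiC replicate 2 (0.26), with the adjusted p in parentheses.

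Srsf3-002 made up 6.21 and 6.77% in MII, 7.86 and 13.3% in GV, 17.7 and 28.1% in EpiC and 15.6 and 19.4% in ESC. The groups do not overlap, yet the usage change of -1.18 ± 0.42 (log2, SE) did not pass the test (adjusted p = 0.0671). Srrm2-008 and Rbm39-024 were low in every oocyte library. Srrm2-008, from a gene of the spliceosome's scaffold, was at 0.948% of its gene or less in oocytes, against 3.55% or more in cultured cells (adjusted p = 0.00355). Rbm39-024, from the gene of a splicing cofactor, was at 0.706% or less, against 4.65% or more (adjusted p = 0.00461).

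Srsf4 had 2 members that moved alike. Srsf4-003 made up 1.1 and 0.627% in MII, 1.53 and 0.834% in GV, 6.24 and 7.68% in EpiC and 5.5 and 8.77% in ESC (-3 ± 0.62, log2, SE, adjusted p = 0.00608, and 0.0573 without replicate 2 of both EpiC and ESC). For Srsf4-004 the shares were 2.77 and 2.3% in MII, 2.76 and 2.04% in GV, 8.39 and 9.82% in EpiC and 11.9 and 9.8% in ESC (-2.14 ± 0.55, adjusted p = 0.0329), a call lost without GV replicate 1 (0.0708), GV replicate 2 (0.0984), MII replicate 1 (0.0621), MII replicate 2 (0.0892), ESC replicate 1 (0.068), ESC replicate 2 (0.0567), EpiC replicate 2 (0.0604). The member that rose was Srsf1-002, at 10.1 and 17.4% in MII, 11.6 and 19.5% in GV, 0.909 and 11.3% in EpiC and 0.513 and 3.01% in ESC (2.64 ± 0.66, log2, SE, adjusted p = 0.00513). EpiC replicate 2 lies inside the oocyte range, and significance went with the omission of ESC replicate 1 (0.067), EpiC replicate 1 (0.0801).

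In the hnRNP list (splicing repressors and other nuclear RNA-binding proteins) 2 of 35 tested members rose in usage (all transcripts: 5.53%) and 6 fell (all transcripts: 24.3%), with a median of -0.47, so the counts are no higher than the background for falls and near it for rises. Both that rose came from the gene Hnrnpa2b1. Hnrnpa2b1-003 made up 9.86 and 9.88% in MII, 10.7 and 10.6% in GV, 0.422 and 0.239% in EpiC and 0.31 and 0.175% in ESC, well apart and with little spread inside oocytes (4.97 ± 0.70, log2, SE, adjusted p = 8.39e-07). For Hnrnpa2b1-002 the shares were 7.57 and 12.9% in MII, 0.0746 and 1.5% in GV, 0.0967 and 0.625% in EpiC and 1.53 and 0.709% in ESC (2.26 ± 0.64, log2, SE, adjusted p = 0.00561). Its change was 0.57 without GV replicate 2, and it did not pass with the omission of GV replicate 2 (0.654), ESC replicate 2 (0.0592), EpiC replicate 1 (0.0791). The stop of Hnrnpa2b1-003, the same as in the coding transcript, has a junction 157 bases after it.
Hnrnpa2b1-003: aggagcagatatTAAgcttcttcctactta
Hnrnpd-004, from the gene of AUF1, an AU-rich element binding protein, reached 0.069% of its gene at most in oocytes, against 0.954 and 2.87% in EpiC and 0.832 and 2.2% in ESC (adjusted p = 3.02e-05). Tardbp-002, from the gene of TDP-43, reached 0.0732% at most, against 1.08 and 0.602% in EpiC and 1.05 and 1.41% in ESC (-6.24 ± 1.53, log2, SE, adjusted p = 0.00102). Tial1-013 made up 1.44 and 0.632% in MII, 0 and 0.382% in GV, 2.11 and 7.76% in EpiC and 1.47 and 7.16% in ESC (adjusted p = 0.00548), with MII replicate 1 and ESC replicate 1 nearly equal, and it did not pass with the omission of GV replicate 1 (0.0509), ESC replicate 2 (0.136), EpiC replicate 2 (0.0582).

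Of 29 tested members of core spliceosome genes 1 rose in usage (all transcripts: 5.53%) and 9 fell (all transcripts: 24.3%), with a median of -1.24. Sf1-012, from the gene of the branch point binding protein, made up 1.8 and 0.221% in MII, 9.56 and 13.5% in GV, 18.7 and 17% in EpiC and 15.7 and 15.2% in ESC. The order MII, GV, cultured cells holds with no overlap, with a usage change of -2.57 ± 0.68 for oocytes (log2, SE, adjusted p = 0.0031), which was lost without MII replicate 2 (0.0565). U2af2-003, from the gene of the large U2AF subunit, was the member that rose, at 9.21 and 39.8% in MII, 6.2 and 28.2% in GV, 4.66 and 10.7% in EpiC and 9.45 and 10.2% in ESC. Replicate 2 of MII and of GV was high and replicate 1 of each lay inside the cultured range (1.51 ± 0.54, adjusted p = 0.0335), and it did not pass with the omission of GV replicate 2 (0.548), MII replicate 2 (0.55), ESC replicate 1 (0.138), ESC replicate 2 (0.132), EpiC replicate 1 (0.194), EpiC replicate 2 (0.0502).

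Genes of cytoplasmic ribosomal proteins, a list added after the files were seen, had 16 members in 13 of 89 genes. Of 15 tested 0 rose and 9 fell in usage (all transcripts: 5.53% and 24.3%), with a median of -3.53 against -0.69 over all transcripts. By level 0 rose and 14 fell (all transcripts: 24.1% and 36.9%). Rpl13a-009 made up 0 and 0.946% in MII, 9.58 and 17.4% in GV, 27 and 31.8% in EpiC and 25.3 and 32.4% in ESC (-3.60 ± 0.77, log2, SE, adjusted p = 0.000265). Rpl13a-017 made up 0 and 1.44% in MII, 8.38 and 26.3% in GV, 25.7 and 19.1% in EpiC and 20.1 and 17.2% in ESC, so GV replicate 2 lies above all cultured libraries while the other oocyte libraries lie below (-2.60 ± 0.75, adjusted p = 0.00547, and 0.0867 without replicate 2 of both EpiC and ESC). Rpl10a-002, at 0 and near 0 in MII, 2.7 and 4.59% in GV, 17.8 and 45.6% in EpiC and 13.7 and 32.7% in ESC, was lower in every oocyte library (-3.75 ± 0.96, adjusted p = 0.00365), a call lost without MII replicate 2 (0.0691). Against these, Rps19-004 had overlapping shares in all groups, as given above.
Rps19-004: caacacagcctcTGAaaaccaaaaggtcaa
Rpl13a-009: gcgtctggcgcaTGAggtcgggtggaagta

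The remaining lists were small, and their counts stand against 5.53% higher and 24.3% lower in usage over all transcripts. Of 11 cell cycle members 2 rose in usage and 4 fell. Ccna2-004, from the gene of cyclin A2, was the main transcript of its gene in oocytes, at 68.3 and 72% in MII and 56.8 and 66.3% in GV, against 27.8 and 46.4% in EpiC and 23.1 and 36.7% in ESC (1.27 ± 0.40, log2, SE, adjusted p = 0.0293). It did not pass with the omission of GV replicate 2 (0.0647), MII replicate 2 (0.0559), ESC replicate 1 (0.16), ESC replicate 2 (0.0556), EpiC replicate 1 (0.147). Cdc20-003, from the gene of an activator of the anaphase-promoting complex, made up 17.5 and 14.7% in MII, 24.8 and 17.4% in GV, 0.332 and 1.02% in EpiC and 1.29 and 0.884% in ESC, with every oocyte library far above every cultured one (4.45 ± 0.89, adjusted p = 0.00109).

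Of 7 tested members of miRNA pathway genes 1 rose (all transcripts: 5.53%) and 4 fell (all transcripts: 24.3%) in usage. Tarbp2-011, from the gene of a Dicer partner, rose, at 4.68 and 15% in MII, 9.47 and 9.3% in GV, 4.4 and near 0 in EpiC and 1.14 and 2.45% in ESC (2.75 ± 0.90, log2, SE, adjusted p = 0.0162), and was lost without GV replicate 1 (0.05), MII replicate 2 (0.151), ESC replicate 1 (0.0876), EpiC replicate 2 (0.126). Wtip-002 reached 3.25% at most in oocytes, against 8.07% or more in cultured cells (adjusted p = 0.0424), and was lost without GV replicate 1 (0.0742), MII replicate 2 (0.255), ESC replicate 1 (0.0958), ESC replicate 2 (0.115), EpiC replicate 1 (0.0957), EpiC replicate 2 (0.103). Against the same background, translation factor members rose in 2 and fell in 3 of 15 cases, oocyte gene members in 0 and 1 of 6, and pluripotency gene members in 0 and 1 of 2.

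The oocyte gene member that fell in usage was Zp2-002, from the gene of a zona pellucida protein, with a stop in a kept intron. It had 0.809 and 2.95 TPM in MII and 36.4 and 14.5 in GV but 2.55% or less of its gene, while its gene had 0.143 TPM at most in cultured cells, where its share was 0 in replicate 1 and the whole gene in replicate 2 of both EpiC and ESC, set by very few reads (adjusted p = 0.000731). The call rests on those libraries and did not pass with the omission of ESC replicate 2 (1), EpiC replicate 2 (1). The pluripotency member was Dnmt3a-004, from the gene of a de novo DNA methyltransferase, at 0 and 0% in MII, 5.64 and 12.5% in GV, near 0 and 10.7% in EpiC and 7.78 and 7.43% in ESC (-5.65 ± 1.44, adjusted p = 0.00254). It did not pass with the omission of EpiC replicate 2 (0.698), where the change was -1.28, nor with limma on the logit of the share (adjusted p = 0.411). Oocytes and cultured cells overlap in it, since GV replicate 2 is the highest library and EpiC replicate 1 is near 0.

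MII oocytes were compared with GV oocytes to see what changes during maturation. By level 198 of 4004 members were higher in MII (all transcripts: 5.53%) and 389 lower (all transcripts: 10.7%). DESeq2 gave 520 and 621, with the share of lower calls at 54.4% against 66.3% in the main test. Over all transcripts that share was 57.6% with DESeq2 and 66.0% in the main test. With limma on log2(TPM + 0.1) the counts were 209 and 715, or 77.4% lower, against 82.0% lower over all transcripts. The split of level calls thus depends on the tool and the scale, for all transcripts as for the members. Leaving out 1 oocyte library gave between 66 and 107 higher and between 121 and 287 lower in level, and 248 were lower without ESC replicate 1 and 259 without ESC replicate 2. By usage 26 of 3943 were higher (all transcripts: 0.493%) and 63 lower (all transcripts: 1.27%), where 1.77% of all transcripts were called in either direction, with a median of -0.09 against -0.06 over all transcripts. Leaving out 1 oocyte library brought the usage counts down to between 3 and 17 higher and between 26 and 44 lower, where an arm then has a single library that is assumed to vary like the other groups.

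The clearest change was in Srpk1-002, from the gene of a kinase of SR proteins. It had 0 TPM in both MII libraries, against 79.9 and 56.7 TPM in GV, 28.7 and 9.12 in EpiC and 20.8 and 11.7 in ESC. The gene's TPM overlapped between MII and GV, with 145 and 131 TPM in MII, 158 and 123 in GV and up to 132 TPM in cultured cells. Its share of the gene was 0 in MII, 50.5 and 46.1% in GV, 21.7 and 12.4% in EpiC and 20.8 and 15.7% in ESC, at least 2566-fold lower in MII than in GV (adjusted p = 9.41e-11), and the call held under every alternative.

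Ddx5-007, from the gene of an RNA helicase, made up 0 and near 0 of its gene in MII, 9.23 and 20.5% in GV, 14.1 and 25.7% in EpiC and 15.7 and 20.7% in ESC. The gene had 252 and 184 TPM in MII and 58.5 and 54 in GV, so the transcript was near 0 while the gene's TPM was higher, and its share was at least 511-fold lower (adjusted p = 0.000291). Pitpna-002, from the gene of a phosphatidylinositol transfer protein, was at 0 in MII, against 19.4 and 25.3% in GV, 9.59 and 16.5% in EpiC and 6.35 and 15% in ESC, at least 38.8-fold lower than in GV (adjusted p = 0.000678). The MII libraries were the lowest of all 8 for both, and MII below GV was a condition for naming them. Over all transcripts both MII libraries lay below both GV libraries in 21.1%.

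Tsc1-004, from the gene of hamartin, which restrains mTORC1, made up 36.5 and 56.7% in GV and near 0 in MII, at least 621-fold lower (adjusted p = 0.00661), a call lost without MII replicate 1 (0.0604), MII replicate 2 (0.0975). Desi1-002, from the gene of a SUMO protease, made up 18 and 23.8% in GV and 0 in MII, at least 76.8-fold lower (adjusted p = 0.00202), and was lost without MII replicate 2 (0.0525). Uck2-002, from the gene of a uridine-cytidine kinase, made up 19.2 and 14.2% in GV and 0 in MII, at least 19.5-fold lower (adjusted p = 0.00734), and was lost without MII replicate 1 (0.0627), MII replicate 2 (0.14). The Uck2 gene itself had 4.66 and 9.07 TPM in MII, against 337 and 352 in GV.

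Cd209c-005, from the gene of a C-type lectin, made up 28 and 41.7% in GV and near 0 in MII (adjusted p = 0.00789), and was lost without GV replicate 2 (0.0762), MII replicate 1 (0.0604), MII replicate 2 (0.117). Rad51d-006, from the gene of a recombination protein, rests on GV replicate 2: it made up near 0 and 0% in MII and near 0 and 25.3% in GV (adjusted p = 0.0204), and without GV replicate 2 the usage change was 1.05 with the sign turned. It did not pass with the omission of GV replicate 2 (1), MII replicate 1 (0.154), MII replicate 2 (0.251), ESC replicate 1 (0.0644), ESC replicate 2 (0.0635), EpiC replicate 1 (0.058), EpiC replicate 2 (0.0567).

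Dnmt3a-004 was at 0 in MII, against 5.64 and 12.5% of its gene in GV (adjusted p = 0.00134, and 0.248 with limma on the logit of the share). By TPM it had 7.06 and 17 in GV, where its gene had 125 and 136 TPM, against 14.2 and 16.1 TPM in MII. Gpi1-010, from the gene of glucose-6-phosphate isomerase, had 0 TPM in MII, against 6.94 and 23.5 TPM in GV, at least 248-fold lower (adjusted p of the level = 0.00695). Its gene was also low in MII, with 4.72 and 6.16 TPM in MII, against 104 and 139 in GV.

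In the opposite direction 2 members met the rule for naming. Atp6v0a2-002, from the gene of a subunit of the vacuolar proton pump, made up 7.58 and 12.6% in MII and 0.41 and 0.802% in GV (4.22 ± 0.97, log2, SE, adjusted p = 0.0219), lost without GV replicate 1 (0.219), GV replicate 2 (0.122), MII replicate 2 (0.136). Hnrnpa2b1-002 made up 7.57 and 12.9% in MII and 0.0746 and 1.5% in GV (3.69 ± 0.96, adjusted p = 0.0301), lost without GV replicate 1 (0.339), MII replicate 1 (0.0763), MII replicate 2 (0.234), ESC replicate 1 (0.0689), ESC replicate 2 (0.0664). Both MII libraries were above both GV libraries in each case, which the rule for naming required.

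By level the members named for rising most in MII came mostly from genes whose TPM was higher there. Ankrd13c-005 had 24.7 and 12.2 TPM in MII and 0.35 and 0.193 in GV, where the gene had 198 and 163 TPM in MII and 18.9 and 19.3 TPM in GV (level 6.77 ± 0.61, log2, SE, adjusted p = 0.00695). Ric1-004, from the gene of a Rab6 exchange factor, had 49.1 and 24.3 TPM in MII and 2.68 and 0.948 in GV (5.04 ± 0.86, adjusted p = 0.0108), lost without GV replicate 2 (0.0616). Zfp280d-007, from a zinc finger gene, had 24.8 and 9.81 TPM in MII and 1.63 and 0.555 in GV (4.67 ± 0.82, adjusted p = 0.0118), lost without GV replicate 2 (0.0585). None of these 3 passed the usage test (adjusted p = 0.254, 1 and 1). Fxr1-007, from the gene of an RNA-binding protein of the fragile X family, had 24.6 and 4.99 TPM in MII and 0.806 and 0.548 in GV, while its gene had 292 and 298 TPM in MII and 293 and 163 TPM in GV. MII replicate 1 was well above replicate 2 (5.08 ± 1.28, adjusted p = 0.0366), and was lost without GV replicate 1 (0.14), GV replicate 2 (0.175), MII replicate 1 (0.134), ESC replicate 1 (0.0538), ESC replicate 2 (0.052).

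Few NMD transcripts passed the tests between EpiC and ESC. By level 2 were higher in EpiC (all transcripts: 0.0517%) and 1 lower (all transcripts: 0.089%), with 207 at an unadjusted p under 0.05. DESeq2 gave 40 and 52, against 1525 and 1540 of all 69656 transcripts. By usage 0 were higher (all transcripts: 0.0106%) and 1 lower (all transcripts: 0.0123%, either direction 0.0229%), with 137 at an unadjusted p under 0.05, while limma on the logit of the share gave 0 lower. On data simulated from these libraries few of the changes put in were found in this comparison, so the few calls do not show that the shares were alike.

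The 3 level calls had low values. Rgs2-004 had 2 and 1.51 TPM in EpiC and 0.0214 and 0 in ESC, at least 19.8-fold higher in EpiC (adjusted p = 0.0394).
Rgs2-004: acttttatcaagTAAgtttcggatcctgta
Fgfr2-001, from a fibroblast growth factor receptor gene and named for its call, had 2.7 and 2.51 TPM in EpiC and 0.177 and 0.14 in ESC, with its gene at 19.2 and 18 TPM in EpiC and 2.17 and 2.17 TPM in ESC (4.07 ± 0.47, log2, SE, adjusted p = 0.0442). Tcl1b2-002 had 0 and 0 TPM in EpiC and 1.57 and 2.91 in ESC, at least 34.2-fold lower in EpiC (adjusted p = 0.0394). Each was lost when any single library was left out, with an adjusted p of at least 0.0929. The usage call was Cnot6l-002, at near 0 and 0% in EpiC and 2.22 and 3.22% in ESC (adjusted p = 0.00977), lost without MII replicate 1 (0.0599), ESC replicate 2 (0.114), EpiC replicate 1 (0.0634), EpiC replicate 2 (0.094).

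The genes of the decay pathway itself were measured at gene level. Of 28 genes, 9 were higher in oocytes than in cultured cells (all genes: 31.9%) and 11 lower (all genes: 44.1%, either direction 76.0%). In MII against GV 12 were higher (all genes: 17.4%) and 8 lower (all genes: 22.2%, either direction 39.6%), and in EpiC against ESC 0 were higher (all genes: 2.63%) and 0 lower (all genes: 2.83%, either direction 5.46%), where DESeq2 gave 0 and 1 and limma on TPM 0 and 0 and 1 gene had an unadjusted p under 0.05. The directions depend on the scale. With limma and log2(TPM + 1) 5 genes were higher and 18 lower in oocytes, against 6658 and 12220 of all 25045 genes. In MII 6 were higher on that scale, against 2408 of all genes. Under TMM the median change of all genes was -0.84 in oocytes and -0.53 in MII, and under RLE it was -0.75 and -0.31. The median of the 28 pathway genes under TMM was -0.47 in oocytes and 0.54 in MII. Of the 12 genes called higher in MII, Ncbp2 had a lower mean TPM there than in GV. The log2 changes of genes below are on TMM-scaled counts and are not the ratio of the TPM beside them. Smg6, with mean TPM of 32.2 in MII and 13.2 in GV, had a log2 change of 2.51.

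Among the core factors, Upf1, the helicase at the centre of the pathway, had 262 and 478 TPM in MII, 18.7 and 57.6 in GV, 72.5 and 66.3 in EpiC and 63.2 and 61.1 in ESC. MII libraries were the highest of all and GV libraries the lowest (MII against GV 4.42 ± 0.63, log2, SE, adjusted p = 0.000777). Upf3a had 0.621 and 1.05 TPM in MII, 15.6 and 19.9 in GV, 43.6 and 44.6 in EpiC and 46.2 and 45.8 in ESC. It was lower in oocytes (-2.72 ± 0.30, adjusted p = 3.56e-05) and lower again in MII than in GV (-3.29 ± 0.43, adjusted p = 0.000644). Upf3b had 3.69 and 1.98 TPM in MII, 33.3 and 13.1 in GV, 32.6 and 22.7 in EpiC and 28.7 and 26.5 in ESC. Its change was smaller in oocytes (-0.96 ± 0.32, adjusted p = 0.0223) and in MII against GV (-1.85 ± 0.47, adjusted p = 0.0119). Upf2 did not pass the test in either comparison (adjusted p = 0.106 and 0.327).

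The SMG genes split. Smg1, the UPF1 kinase, had 36.3 and 22 TPM in MII, 7.74 and 2.43 in GV, 23.6 and 26.7 in EpiC and 39.1 and 42.2 in ESC, higher in MII than in GV (3.80 ± 0.66, log2, SE, adjusted p = 0.0018). Smg5, an adaptor that recruits decay enzymes, had 0.75 and 1.21 TPM in MII, 10.5 and 7.95 in GV, 97.4 and 122 in EpiC and 117 and 157 in ESC, lower in every oocyte library (-4.60 ± 0.35, adjusted p = 4.32e-06). Smg6, the endonuclease, had 30.4 and 33.9 TPM in MII, 14.7 and 11.8 in GV, 19.4 and 22.3 in EpiC and 15.6 and 21.8 in ESC, higher in MII than in GV (2.51 ± 0.32, adjusted p = 0.000611).

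Of the exon junction complex, Magoh had 1439 and 967 TPM in MII, 486 and 362 in GV, 281 and 108 in EpiC and 215 and 113 in ESC, and was higher in oocytes (2.93 ± 0.34, log2, SE, adjusted p = 4.64e-05). Its partner Rbm8a had 4.78 and 8.68 TPM in MII, 59.7 and 80.3 in GV, 189.7 and 102 in EpiC and 202 and 143 in ESC, and was lower (-2.03 ± 0.31, adjusted p = 0.000276). The 2 proteins bind each other in the complex, and their RNAs lay in opposite order between cell types. At the decapping step, Dcp1a, an activator of the decapping enzyme, had 1303 and 1347 TPM in MII, 152 and 108 in GV, 21.3 and 16.5 in EpiC and 17.8 and 16.4 in ESC. It was higher in oocytes (5.41 ± 0.29, log2, SE, adjusted p = 7.17e-07) and higher in MII than in GV (4.52 ± 0.39, adjusted p = 0.000518).

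**Figure D5:**
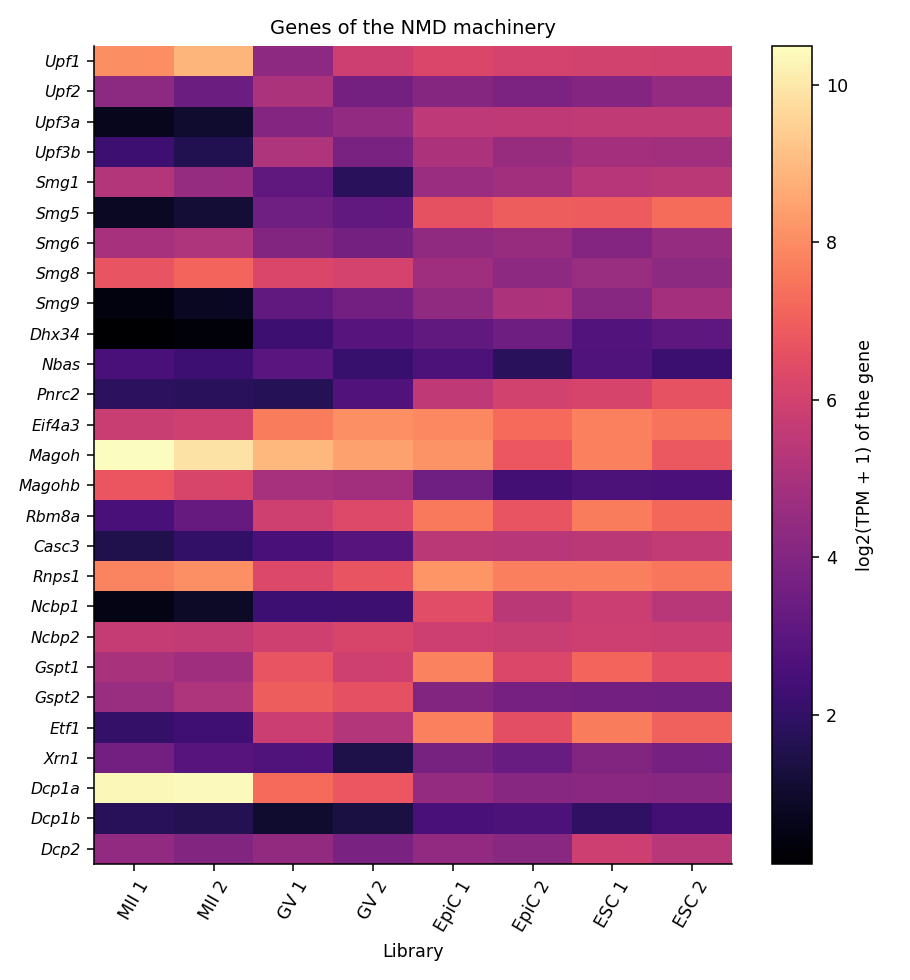
Heat map of log2(TPM + 1) of 27 of the 28 genes of the decay pathway (rows) in the libraries of MII, GV, EpiC and ESC (columns), with lighter colours for higher levels. Dcp1a and Magoh are lightest in MII (Dcp1a 1303 and 1347 TPM), and Dhx34, Smg9 and Ncbp1 darkest there.

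The pathway's genes make NMD transcripts of their own, 7 in 5 genes, of which 6 were tested, 1 higher (all transcripts: 5.53%) and 2 lower (all transcripts: 24.3%) in usage in oocytes. Gspt2-002, from the gene of a release factor paralog, made up 10.3 and 5.59% in MII, 1.1 and 1.15% in GV, 14.7 and 29.6% in EpiC and 14.9 and 19.4% in ESC, lower in every oocyte library (-2.83 ± 0.59, log2, SE, adjusted p = 0.00459, and 0.0576 without replicate 2 of both EpiC and ESC). Smg5-008 made up 0 and 36.6% in MII, 26.3 and 7.5% in GV, 5.54 and 1.9% in EpiC and 5.34 and 2.13% in ESC. MII replicate 1 was at 0 and MII replicate 2 highest of all, and the call (2.76 ± 0.99, adjusted p = 0.0331) turned to -0.96 without MII replicate 2 and was lost without GV replicate 1 (0.143), MII replicate 2 (0.878), ESC replicate 1 (0.0924), ESC replicate 2 (0.188), EpiC replicate 1 (0.0831), EpiC replicate 2 (0.187).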

How the data were processed

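Per the labels' protocols, RNA was extracted with TRIzol and libraries were made with a stranded TruSeq paired-end kit. Per the submitters' processing notes, the authors used kallisto 0.43 and mm10. The deposited files give 1 library each, with estimated counts per transcript (not normalized) and TPM, which the authors' kallisto run scaled to the same total per library after division by effective length. kallisto shares reads among overlapping transcripts of a gene by likelihood, so the split between near-identical transcripts is an estimate, and its error is not in the tests.

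Estimated counts were rounded and tested with edgeR 4.0.16 (R 4.3.3) by the quasi-likelihood test on 4 group means over all 8 libraries, after filterByExpr (minimum count 10) and TMM, with Benjamini-Hochberg adjustment over all transcripts or genes and a threshold of 0.05. Usage was tested with diffSpliceDGE on the same fit. A standard error is the fold change over the root of its F, an approximation. Library values were compared by exact permutation over 4 against 4 libraries, adjusted over 3 values. Alternatives used limma 3.58.1 and DESeq2 1.42.0, and the tests were run on simulated data, where many changes put into single transcripts were missed. A floor is 3 estimated counts per library and covers counting error only.

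Members, gene lists and rules were chosen with earlier results of these data known, and the ribosomal protein list and the printed sequences were chosen after values were seen. Transcripts could be named if they were among the 8 largest usage changes per comparison and direction (mean of 5 TPM and a share of 10% or more in the higher group, no overlap of shares), the 12 highest by mean TPM, the 8 highest shares in genes of 10 TPM or more, the 5 largest level changes per direction (mean of 10 TPM or more) or members of the lists. Fgfr2-001 falls outside this rule and was named for its call. Stops were read from GENCODE M21 by transcript identifier, biotype and length, and transcripts with no match are named only. The values of 1 pathway gene are not reported here.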

Additional observations from a re-analysis of the deposited data

How the results depend on the processing

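Of 105 named values, 61 kept their direction and their side of the threshold under every alternative run. Over all 1504 such checks 1314 did so, 183 lost the call, 5 gained it and 2 turned sign: Smg5-008 usage in oocytes was -0.96 without MII replicate 2 (up to 3.13 without EpiC replicate 1), and Rad51d-006 usage in MII against GV was 1.05 without GV replicate 2 (down to -12.61 without GV replicate 1). The cause was not tested.

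The NMD share of all TPM differed by 0.0373 points on estimated counts, 0.375 without mitochondrial and ribosomal RNA and Gm42418, and 0.331 without replicate 2 of EpiC and ESC, none of which passed the test, and by 0.328 to 0.504 points when a library was left out, where the loss of a cultured library ended the call and that of an oocyte library did not. The median share per gene differed by -1.94 points without both of those libraries and by -4.22 to -2.91 points with a library left out, where the loss of an oocyte library ended the call and that of a cultured library did not. The share of host-gene TPM turned to 0.73 points without both. For NMD transcripts the median change in oocytes was then -0.40 in level and -0.20 in usage. Over all transcripts these medians were -0.88 and -0.26. Without both, 528 transcripts were lower in level in oocytes and 405 in usage, 156 were lower in level and 12 higher and 39 lower in usage in MII, and 0 were called in EpiC.

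DESeq2 called 520 higher and 621 lower in level in MII and 40 and 52 in EpiC, with 1 pathway gene lower in EpiC. Over all 69656 transcripts it called 8514 and 11545 in MII and 1525 and 1540 in EpiC. limma on log2(TPM + 1) called 46 and 90 in EpiC, and on log2(TPM + 0.1) 32 and 51, with 715 lower in MII. Over all transcripts these were 1513 and 2269, then 1118 and 1559, with 14751 lower in MII. Both limma scales gave 5 pathway genes higher and 18 lower in oocytes and 6 higher in MII. Over all 25045 genes log2(TPM + 1) gave 6658 higher and 12220 lower in oocytes and 2408 higher in MII. With log2(TPM + 0.1) these were 6557, 13023 and 2275. On the logit of the share limma called 13 higher in MII and 0 lower in EpiC. RLE scaling gave 1 higher in level and 1 higher in usage in EpiC.

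With a library left out, level calls ranged over 66 to 237 higher and 121 to 335 lower in MII, and were 0 in EpiC. Usage calls ranged over 147 to 212 higher and 595 to 924 lower in oocytes, 3 to 25 higher and 26 to 58 lower in MII, and 0 to 1 higher and 0 to 2 lower in EpiC, with 0 to 1 pathway genes lower in EpiC.

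The labels tie same-numbered libraries to nothing shared, so the replicate numbers were not taken as a pairing, although deviations of same-numbered libraries correlated positively, at 0.197 between MII and GV and 0.525 between EpiC and ESC. With the replicate block 0 transcripts were higher and 0 lower in level in EpiC, 1 pathway gene was lower there, and calls lost included U2af2-003 usage in oocytes (adjusted p = 0.214) and Rad51d-006 usage in MII (adjusted p = 0.064).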
